A study of Homo sapiens with 6 samples.

Results

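The nuclear genes of mitochondrial translation, protein import and respiration are described here by the pair of poly(A) sites (PASs) that each used most in HL-60 cells. HL-60 is a human promyelocytic leukemia line that turns toward macrophages when treated with the phorbol ester PMA. The series holds 3 samples of cells that overexpressed CFIm25 (OE-CFIm25) and 3 samples of control cells (OE-control). OE-CFIm25 cells carried a lentiviral construct with the CFIm25 coding sequence behind an EF1a promoter, OE-control cells carried the same backbone with no insert, both were selected with puromycin, and both were treated with 3 nM PMA for 6 h. RNA was read by QuantSeq FWD, in which oligo(dT) primes reverse transcription at the poly(A) tail, so that reads end at the site where the mRNA was cleaved. The members were all genes of the deposited table of PAS pairs whose symbols begin with MRPL, MRPS, NDUF, TIMM, TOMM, ATP5, UQCR, SLC25, MTIF, MTRF or MTERF, with COX or COQ and a digit, or with SDHA to SDHD. After 1 repeated row was dropped from 2724 rows, 60 of 2723 genes met this rule.

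For each gene the table gives positions for 2 PASs, the proximal one (pPAS) and the distal one (dPAS), which were those with the most use in the terminal 3’ UTR. It gives these once for both groups together, with no number of reads for any sample. Its remaining columns hold the authors' own comparison of the groups and were not used. The change in PAS usage between OE-CFIm25 and OE-control is therefore not analysed here, and neither is any level of these mRNAs. No test between groups and no spread between replicates could be given. What follows describes the sites themselves, and the values over all 2723 genes stand beside those of the 60 members with no test. Reads that ended at a PAS and lay in genes numbered 3525582 to 3845872 per library (median 3603012, 6 libraries), but how many of them lay behind any member's PAS is unknown.

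Nearly all mitochondrial proteins are made from nuclear mRNAs in the cytosol and enter through the TOM complex of the outer membrane and the TIM complexes of the inner membrane. The mitochondrial ribosome, built from MRPL and MRPS proteins around RNA made inside the organelle, translates the few mRNAs of the mitochondrial genome, which encode core subunits of the respiratory chain and the ATP synthase. SLC25 proteins are the carriers that move metabolites across the inner membrane. When an mRNA has 2 PASs in its last exon, cleavage at the pPAS leaves a short 3’ UTR and cleavage at the dPAS a long one, and both mRNAs encode the same protein. Cleavage usually follows a poly(A) signal, AATAAA or ATTAAA in DNA letters, which CPSF recognizes. CFIm25 is the subunit of cleavage factor I that binds UGUA upstream of many PASs.

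The members comprised 13 MRPL and 12 MRPS genes, 6 complex I genes (NDUF), 1 gene each of complexes II (the assembly factor SDHAF4), III (UQCRC2) and IV (COX7A2), 3 assembly factors of complex IV (COX18, COX19 and COX20), 2 genes of the ATP synthase (ATP5MJ and ATP5PF), 4 TIMM and 3 TOMM genes, 2 genes of coenzyme Q synthesis (COQ3 and COQ7), 10 SLC25 carriers, MTERF1 and MTRFR. Some symbols reach beyond the roles that their prefixes name. MRPS36 is known as a subunit of the alpha-ketoglutarate dehydrogenase complex, SLC25A17 is a carrier of peroxisomes, and SLC25A46 lies in the outer membrane and acts in mitochondrial dynamics. Both PASs of all 60 members lay in the last exon of 1 annotated transcript, past its stop codon, against 2686 of all 2723 genes (98.6%).

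The sites most unlike each other in spacing show what a pair looks like in sequence. The closest pairs were those of NDUFS5 (25 nt), COX7A2 (26 nt), NDUFA6 (27 nt), MRPS6 (45 nt), and ATP5PF and MRPL27 (47 nt each). The last 30 nt up to the dPAS of these genes are shown in transcript sense, 5′ to 3′, on GRCh37 (hg19), with the poly(A) signal in capitals.
NDUFS5 dPAS, chr1:39500257-39500286, plus strand: gtgtgtaaaAATAAAggattgctccatcct
COX7A2 dPAS, chr6:75947503-75947532, minus strand: actgccaccAATAAAgcagtctttaccatg
NDUFA6 dPAS, chr22:42482119-42482148, minus strand: gagcacaAATAAActcactatacaatggtc
MRPS6 dPAS, chr21:35515299-35515328, plus strand: tttgctttgagtAATAAActtgattgtagg
ATP5PF dPAS, chr21:27096812-27096841, minus strand: tgagtccaAATAAAttatttggtgatgttg
MRPL27 dPAS, chr17:48445229-48445258, minus strand: cagcgtcatgaacgcatgctatttagggac
Of these genes, 5 had AATAAA in the 40 nt up to the dPAS. MRPL27 had neither hexamer within 40 nt, although AATAAA lay within 50 nt. In NDUFS5, COX7A2 and NDUFA6 the hexamer of the dPAS lay downstream of the pPAS, and the pPAS had no hexamer of its own within 40 nt. MRPS6 and ATP5PF had AATAAA at each of their sites, at 22 and 25 nt before their pPASs. NDUFS5 and NDUFA6 are accessory subunits of complex I, COX7A2 is a nuclear-encoded subunit of complex IV, ATP5PF is part of the stalk that holds the ATP synthase together, and MRPS6 and MRPL27 belong to the small and the large subunit of the mitoribosome. A read was assigned to a PAS where its end lay within 24 nt of it, so the windows of sites closer than 49 nt overlap. This held for 6 members (10.0%) and for 116 of all genes (4.26%).

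The widest pairs were those of NDUFS1 (9092 nt), MRPL19 (3623 nt), SLC25A36 (3301 nt), SLC25A37 (3260 nt) and NDUFB5 (3147 nt). NDUFS1 is the large iron-sulfur subunit of complex I, NDUFB5 an accessory subunit of its membrane arm, MRPL19 a protein of the large mitoribosomal subunit, SLC25A36 a carrier of pyrimidine nucleotides and SLC25A37 (mitoferrin) a carrier of iron. Both sites are shown for those whose sequence is printed, again as the last 30 nt up to the PAS with the signal in capitals, because at these distances the sites share no sequence.
NDUFS1 dPAS, chr2:206979542-206979571, minus strand: agcagatacAATAAAaacttaattgtgatt
NDUFS1 pPAS, chr2:206988634-206988663, minus strand: ttgtgacgaacataaagagatccttaaatt
MRPL19 dPAS, chr2:75886450-75886479, plus strand: cacaaattgcctAATAAAtaatttatagtt
MRPL19 pPAS, chr2:75882827-75882856, plus strand: ggaatgttaagaAATAAAacatttaataag
SLC25A36 dPAS, chr3:140698748-140698777, plus strand: tcaaattttaaaaATTAAAatacgctcatg
SLC25A36 pPAS, chr3:140695447-140695476, plus strand: cacaccacattacttggcctttcggtaatg
NDUFB5 dPAS, chr3:179345405-179345434, plus strand: acctaaatAATAAAtattctcctgaacccc
NDUFB5 pPAS, chr3:179342258-179342287, plus strand: cagattctcagtaaacaaattttaaagttt
Each dPAS had a signal, and so did the pPAS of MRPL19, whereas the pPASs of NDUFS1 and SLC25A36 had none within 40 nt. The pPAS of NDUFS1 had only CATAAA, a variant of the signal. In NDUFB5 the AATAAA of the pPAS starts 36 nt before the site and so lies upstream of the bases shown. Of all 2723 genes, 7 had a pair wider than that of NDUFS1.

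Close pairs took a larger share of the members than of the table as a whole. Pairs under 100 nt were found in 14 members (23.3%, 95% Wilson interval 14.4 to 35.4%) and in 294 of all genes (10.8%). The median distance was 384.5 nt over the 60 members (95% interval from order statistics 192 to 938 nt), with quartiles of 119.75 and 1515.75 nt, against 760 nt over all genes, with quartiles of 256 and 1756.5 nt. The interval of the members holds the median of all genes. A site followed by A-rich sequence, by the definition given with those sites, was present in 14 members (23.3%) and 907 of all genes (33.3%), and without such genes the median distance was 253 nt over 46 members and 708 nt over 1816 genes. At the other end, 21 members (35.0%, 24.2 to 47.6%) and 1141 of all genes (41.9%) had pairs at least 1000 nt apart, and 8 members (13.3%) and 424 of all genes (15.6%) pairs at least 2500 nt apart. The curves of distance therefore part at short distances and come together at long ones. These are descriptions of the table, whose genes are not replicates, and the difference was not tested.

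**Figure D1:**
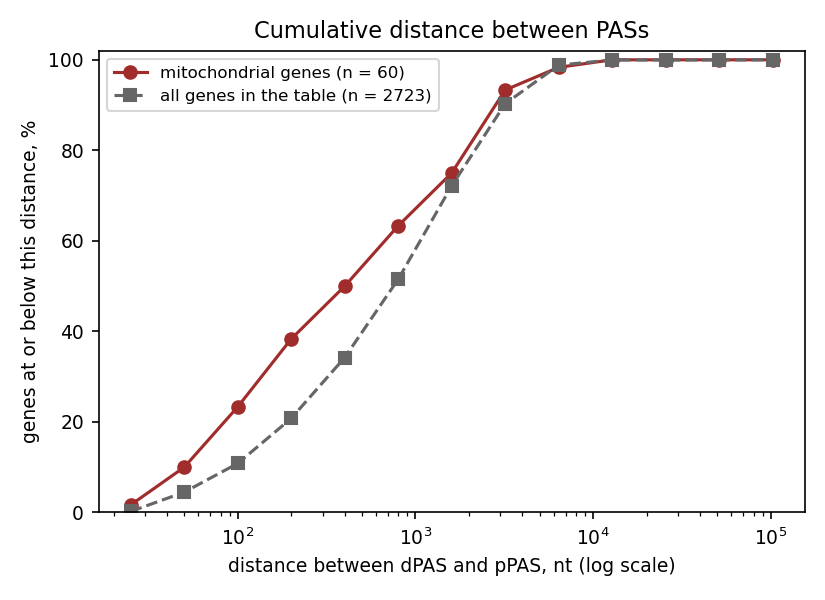
Cumulative share of genes (y axis, %) whose PASs lie at or below a given distance (x axis, nt, log scale), for the 60 members and for all 2723 genes. The curve of the members is higher at short distances, with 23.3% of members and 10.8% of all genes under 100 nt.

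By role, the medians had wide and overlapping intervals, given in brackets at the 95% level from order statistics. The 25 mitoribosomal genes, taken as those with MRPL or MRPS symbols, MRPS36 included, had a median of 192 nt (132 to 522 nt). They ran from 45 nt (MRPS6) to 3623 nt (MRPL19). The 14 genes of the respiratory chain, the ATP synthase and their assembly had a median of 531 nt (27 to 2824 nt) and the widest range, from 25 nt (NDUFS5) to 9092 nt (NDUFS1). The 10 SLC25 carriers had a median of 719 nt (194 to 3260 nt), and the 7 import genes one of 1623 nt (70 to 3096 nt). No difference between roles was tested. Beside these, 10 genes of cytosolic ribosomal proteins in the table had a median of 52.5 nt (26 to 444 nt) and 38 SLC genes outside SLC25 one of 1159.5 nt (658 to 2537 nt).

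Within the large mitoribosomal subunit, MRPL14 (57 nt), MRPL32 (69 nt), MRPL20 (126 nt), MRPL57 (156 nt), MRPL3 (165 nt) and MRPL30 (192 nt) had close pairs. MRPL47 (364 nt), MRPL44 (522 nt) and MRPL52 (690 nt) lay between, and MRPL42 (1305 nt) and MRPL50 (2332 nt) joined MRPL19 among the wide ones. Among the genes with MRPS symbols, MRPS36 included, 6 of 12 had pairs under 200 nt. These were MRPS6, MRPS23 (66 nt), MRPS14 (84 nt), MRPS36 (132 nt), MRPS28 (142 nt) and MRPS18A (147 nt), and MRPS18C (212 nt) followed. MRPS7 (316 nt) and MRPS10 (431 nt) came next, and MRPS17 (1245 nt), MRPS25 (1369 nt) and MRPS16 (1867 nt) had pairs over 1000 nt wide. Of the other genes of mitochondrial gene expression, MTRFR, which rescues stalled mitoribosomes, had 405 nt, and MTERF1, which terminates transcription at the end of the mitochondrial rRNA genes, had 1946 nt.

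In the import machinery the distances ranged widely. The small chaperones of the intermembrane space TIMM8A (70 nt) and TIMM9 (98 nt) had close pairs and their relative TIMM10B one of 1623 nt. TIMM50 (3096 nt), the receptor of the TIM23 complex, and TOMM20 (2488 nt) and TOMM70 (1814 nt), the receptors of the outer membrane for precursor proteins, had wide ones. TOMM5 (290 nt), a small subunit of the TOM complex, lay between. TIMM10B, TIMM50, TOMM20 and TOMM70 were thus 4 of the 21 members with pairs of at least 1000 nt.

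Among the respiratory genes, the remaining complex I subunits were NDUFA2 (101 nt) and NDUFA5 (1029 nt). UQCRC2, a core protein of complex III, had 280 nt, ATP5MJ, a small subunit of the ATP synthase, 216 nt, and SDHAF4, an assembly factor of complex II, 782 nt. All 3 complex IV assembly factors had pairs of at least 1000 nt, as did 41.9% of all genes. The distance was 1029 nt in COX18, which inserts subunit II into the membrane, and 1480 nt in COX20, the chaperone of that subunit. In COX19, which acts in copper delivery, it was 2824 nt. The dPASs of COX20 and COX19 had no poly(A) signal and were followed by A-rich sequence, with 15 and 18 A in 20 nt. Whether reads at these dPASs come from priming inside the mRNA was not tested. COQ3, a methyltransferase of coenzyme Q synthesis, had 69 nt, and the hydroxylase COQ7 767 nt. The carriers ran from SLC25A38 (99 nt), a glycine carrier of heme synthesis, through the aspartate-glutamate carriers SLC25A13 (194 nt) and SLC25A12 (408 nt), SLC25A32 (317 nt), SLC25A17 (500 nt) and SLC25A40 (938 nt) to SLC25A46 (2392 nt) and SLC25A16 (2516 nt), below SLC25A37 and SLC25A36.

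**Figure D2:**
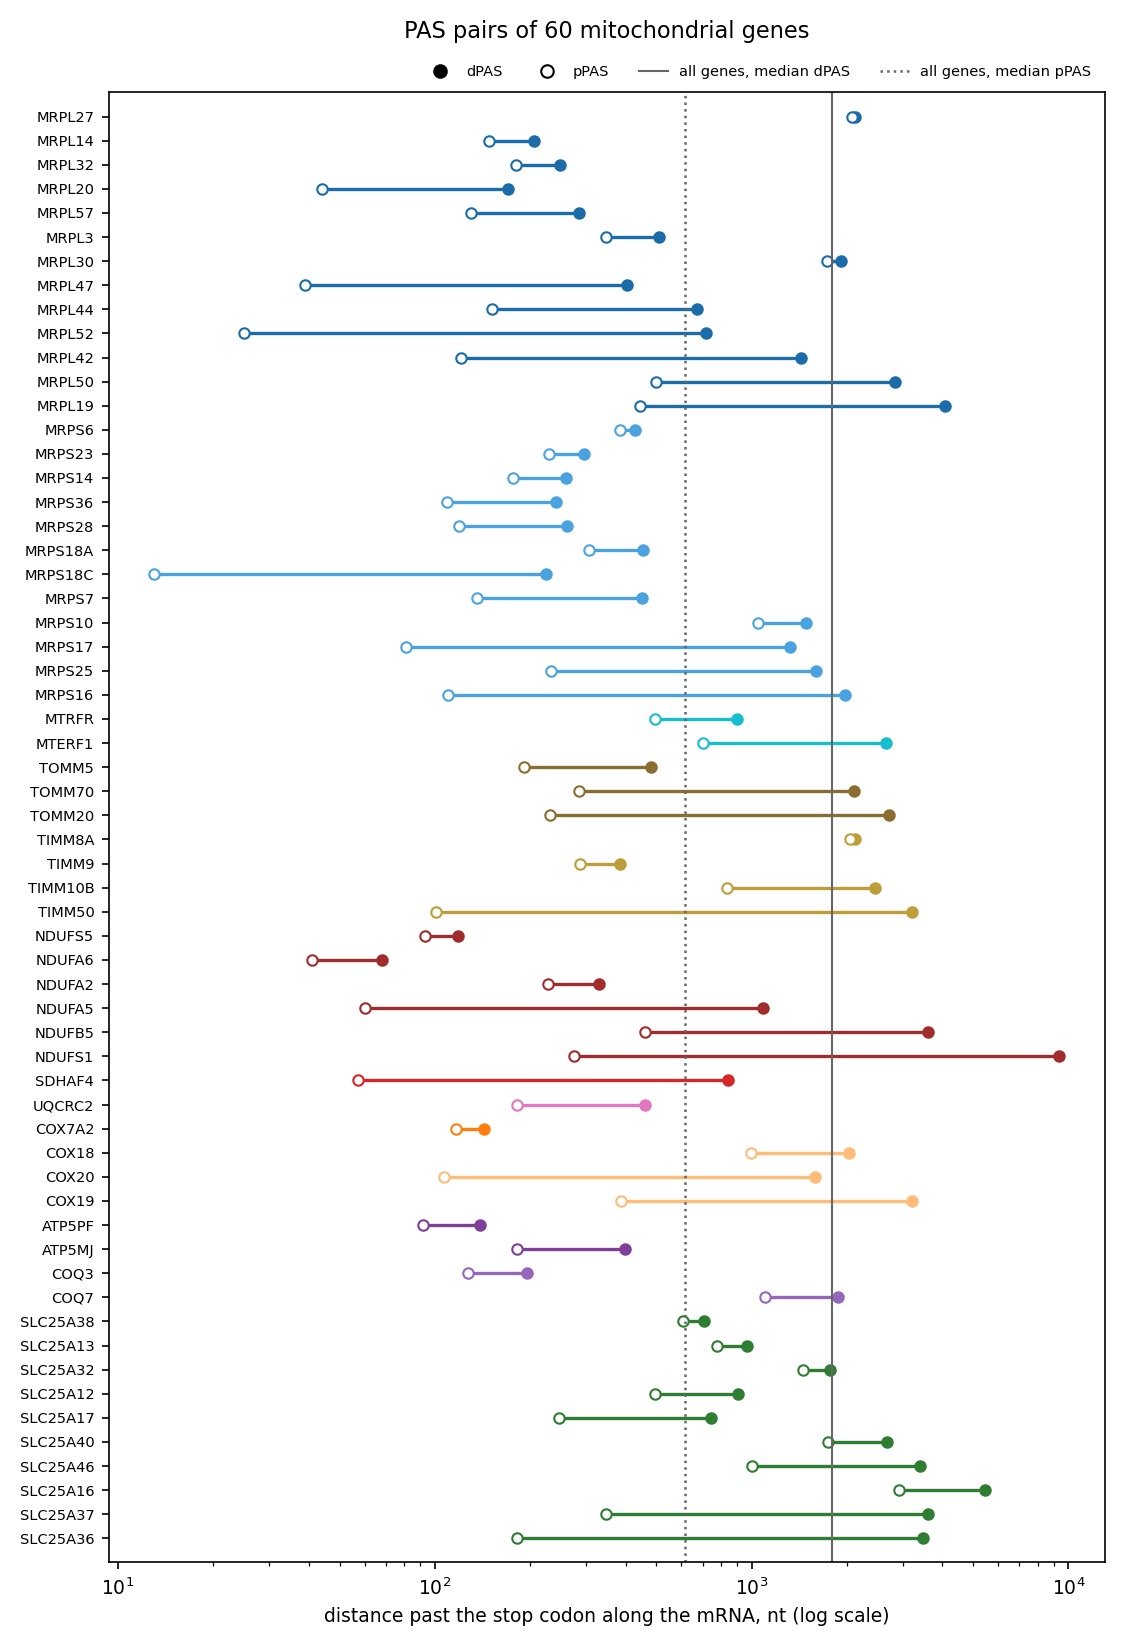
Position of the dPAS (filled) and the pPAS (open) of each of the 60 members in nt past the stop codon along the longest annotated 3’ UTR (x axis, log scale), with members grouped and coloured by role (y axis); vertical lines mark the medians over all genes with an annotated value, 1791 nt for the dPAS and 615 nt for the pPAS. Most open symbols lie left of the pPAS line, with a median of 230.5 nt over the members.

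At the median over the 60 members, both sites lay nearer to the stop codon than in the table as a whole, but not in every role. Along the longest annotated 3’ UTR, the dPAS lay at a median of 901.5 nt past the stop codon in the members (95% interval from order statistics 461 to 1765 nt) and of 1791 nt over the 2694 genes with an annotated value. The pPAS lay at a median of 230.5 nt in the members (151 to 346 nt) and of 615 nt over 2700 genes. With the shortest annotated UTR in its place, the medians over the members were 792.5 nt for the dPAS and 186 nt for the pPAS. That choice changes the value of 4 members, by the most in MRPL27 (pPAS at 2072 or 177 nt) and TIMM8A (2049 or 161 nt). The ratio of the short to the long 3’ UTR was nearly that of all genes, with a median of 45.3% in the members and 46.3% in all genes.

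The dPAS lay at a median of 673 nt past the stop codon in the MRPL genes, 440 nt in the MRPS genes and 650 nt in the respiratory genes. In the import genes it lay at 2119 nt (95% interval from order statistics 385 to 3197 nt) and in the carriers at 2222.5 nt (746 to 3606 nt). These medians were above the 1791 nt of all genes, which lies inside both intervals. The pPAS lay at a median of 151 nt in the mitoribosomal genes, 149 nt in the respiratory genes and 285 nt in the import genes. In the carriers it lay at 692 nt (246 to 1742 nt), above the 615 nt of all genes, which lies inside that interval. No carrier had its pPAS nearer than the 181 nt of SLC25A36. It lay under 100 nt from the stop codon in 10 members (16.7%) and 193 of all genes (7.09%), and under 50 nt in 5 members (8.33%) and 67 of all genes (2.46%). These 5 were MRPS18C (13 nt), MRPL52 (25 nt), MRPL47 (39 nt), NDUFA6 (41 nt) and MRPL20 (44 nt). The others under 100 nt were SDHAF4 (57 nt), NDUFA5 (60 nt), MRPS17 (81 nt), ATP5PF (92 nt) and NDUFS5 (93 nt), so that the 10 were 5 mitoribosomal and 5 respiratory genes. The longest UTR belonged to NDUFS1, whose dPAS at 206979542 lay 9367 nt past the stop codon in exon 19 and whose pPAS at 206988634 lay 275 nt past it, which makes the short UTR 2.94% of the long one.

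In MRPS18C and MRPL52, singled out after their values were seen, the AATAAA of the pPAS spans the stop codon. The last 30 nt up to each pPAS are shown with the signal in capitals, within which TAA is the stop codon.
MRPS18C pPAS, chr4:84382334-84382363, plus strand: tcagatatcgggAATAAAttctatcacgtt
MRPL52 pPAS, chr14:23303526-23303555, plus strand: AATAAAaagcaactcctgcctcccttcctc
The signal starts 18 nt before the pPAS in MRPS18C and 30 nt before it in MRPL52, and in each of them 5 of its bases precede the first base of the 3’ UTR. Over the whole table a signal overlapped the stop codon at the pPAS of 17 genes (0.624%), these 2 members (3.33% of 60) among them, and at the dPAS of none. In both genes the long isoform has a signal of its own, AATAAA 30 nt before the dPAS of MRPS18C and 22 nt before that of MRPL52. The UTR to the pPAS was 5.78% of the UTR to the dPAS in MRPS18C and 3.50% in MRPL52.

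A poly(A) signal was more frequent at the distal than at the proximal site. Within 40 nt up to the site, on the transcript strand and with AATAAA taken before ATTAAA, 48 of 60 member dPASs (80.0%, 95% Wilson interval 68.2 to 88.2%) and 33 of 60 member pPASs (55.0%, 42.5 to 66.9%) had one. The shares over all genes were 80.3% for the dPAS and 55.5% for the pPAS, inside these intervals, which cover counting over genes only. In 40 nt windows that start 200 nt farther upstream the hexamers stood before 5 member dPASs and 5 member pPASs (8.33% each), against 5.88% and 3.78% over all genes. In ATP5MJ, MRPL30, MRPS18C and SLC25A13, with pairs 192 to 216 nt apart, the hexamer in the dPAS window is that of their own pPAS. The dPAS share therefore gives no background rate for the hexamer in members. These windows are genomic and can hold coding or intron sequence where the stop codon is near. In the 40 nt up to the site, the hexamer was AATAAA in 41 dPASs and 26 pPASs and ATTAAA alone in 7 of each. It started at a median of 21 nt before the site for both kinds of site.

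The sites of 28 members (46.7%) both had a signal, 20 members (33.3%) had one at the dPAS only, 5 (8.33%) at the pPAS only and 7 (11.7%) at neither, against 45.5, 34.9, 10.0 and 9.66% of all genes in the same order. In the mitoribosomal genes the sites differed least, with a signal at 18 dPASs and 16 pPASs of 25. In the respiratory genes it stood at 12 dPASs and 6 pPASs of 14, in the import genes at 6 dPASs and 2 pPASs of 7 and in the carriers at 9 dPASs and 6 pPASs of 10. TIMM50 and TIMM9 were the import genes with a signal at the pPAS. The members with a signal at the pPAS only were COX20, MRPS16, MRPS23, MTERF1 and SLC25A38.

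Members with no signal within 40 nt of either site were MRPL27, MRPL32, TIMM8A, MRPL20, MRPS18A and MRPS7, in order of distance, and COX19. The last 30 nt up to the dPAS are shown for those not given above, in lower case because neither hexamer occurs in them.
MRPL32 dPAS, chr7:42977395-42977424, plus strand: ggttttaagtaaacataaaatttccagaac
TIMM8A dPAS, chrX:100601256-100601285, minus strand: aatcttgtgaaaataattgacaggcgaaag
MRPL20 dPAS, chr1:1337293-1337322, minus strand: atgttttgtgtgaatgaaactcaaacactc
MRPS18A dPAS, chr6:43639045-43639074, minus strand: ttcatgggccaaacaggtcccatcctcttc
MRPS7 dPAS, chr17:73262427-73262456, plus strand: caaaatgtataaaaagcagtttctggtgtg
Single-base variants of AATAAA stood before some of them, AGTAAA at both sites of MRPL32, TATAAA at the dPAS and AAGAAA at the pPAS of MRPS7, and CATAAA at the pPAS of MRPS18A. None of the 9 variants searched stood at either site of MRPL27, TIMM8A, MRPL20 or COX19. Over the 60 members, 11 pPASs (18.3%) and 3 dPASs (5.00%) had no signal but such a variant, against 15.6 and 9.55% over all genes. Between the sites of MRPL20, MRPS18A and MRPS7 lie annotated exons of genes on the opposite strand, MRPL20-AS1, RSPH9 and MIF4GD. Members with a signal had such exons too, namely MRPL44, MRPS16, MRPS18C, NDUFA2, NDUFS1 and TIMM9. These overlaps were not counted over all genes.

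**Figure D3:**
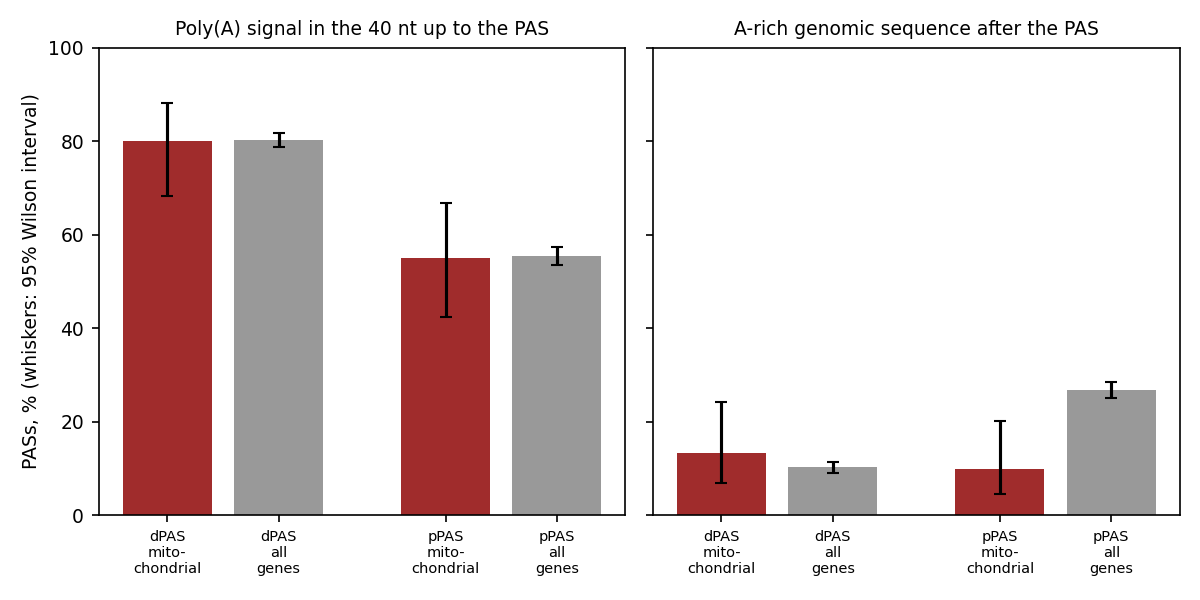
Share of dPASs and pPASs (y axis, %) with a poly(A) signal in the 40 nt up to the site and with A-rich sequence in the 20 nt after it, for the 60 members beside all 2723 genes; whiskers are 95% Wilson intervals over genes. The signal shares of members and all genes nearly coincide, while A-rich sequence followed 10.0% of member pPASs and 26.7% of all pPASs.

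Oligo(dT) can also prime on A-rich stretches inside an mRNA, so the 20 nt after each PAS were searched for A-rich sequence, meaning a run of 6 A, or 12 A or more in any order. Such sequence followed 8 member dPASs (13.3%, 95% Wilson interval 6.91 to 24.2%) and 279 of all dPASs (10.2%). With 14 A or a run of 8 A required, it followed 6.67% of member dPASs. It followed 6 member pPASs (10.0%, 4.66 to 20.1%) and 728 of all pPASs (26.7%), so that the pPASs of members had it in a smaller share than those of the table. A pPAS that was A-rich and had no signal was found in 5 members (8.33%) and 638 of all genes (23.4%). Whether reads at these sites come from internal priming was not tested.

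The A-rich pPASs were those of SLC25A16 (19 A of 20), SLC25A37 (18), MRPS10 (17), MRPS36 and MTRFR (15 each) and SLC25A36 (14). Of the carriers 3 of 10 were thus A-rich at the pPAS, beside 14 of 38 SLC genes outside SLC25 (36.8%), and of the 14 respiratory and the 7 import genes none was. The A-rich dPASs were those of MTERF1 (19 A of 20), COX19 (18), COX20 and MRPL32 (15 each), MRPL47 and SLC25A17 (12 each), UQCRC2 (10) and SDHAF4 (7), the last pair by a run of 6 A. MTERF1, COX19, COX20 and MRPL32 had no signal at that site. Of the 5 widest pairs, those of SLC25A36 and SLC25A37 had an A-rich pPAS and those of NDUFS1, MRPL19 and NDUFB5 had no A-rich site.

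UGUA, the motif that CFIm25 binds, was counted as TGTA in the 100 nt up to each site on the transcript strand. At least 1 stood before 34 dPASs and 30 pPASs of the 60 members, against 1633 dPASs and 1345 pPASs of the 2723 genes. The mean count was 0.85 at the dPAS and 0.70 at the pPAS of members, and 0.94 and 0.74 at the same sites of all genes. The dPAS had 0.15 ± 1.16 more UGUA than the pPAS in the members (SD, n = 60 genes) and 0.20 ± 1.33 more in all genes (SD, n = 2723 genes). In the 50 nt up to each site the mean difference of the members turned to −0.017. Neither mean was tested. More UGUA stood at the dPAS in 19 members (31.7%), more at the pPAS in 16 (26.7%), and the count was equal in 25 (41.7%). The shares over all genes were 36.6, 25.8 and 37.6% in the same order. In 100 nt windows that start 200 nt farther upstream, the mean count of members was 0.67 for the dPAS and 0.45 for the pPAS. The means of all genes there were 0.69 and 0.54. These windows are genomic and can hold coding or intron sequence where the stop codon is near. The pPAS lay at a median of 230.5 nt past the stop codon in members and 615 nt in all genes. What the pPAS windows hold may therefore differ between members and all genes. For pairs under 100 nt apart the windows overlap and count some of the same bases.

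**Figure D4:**
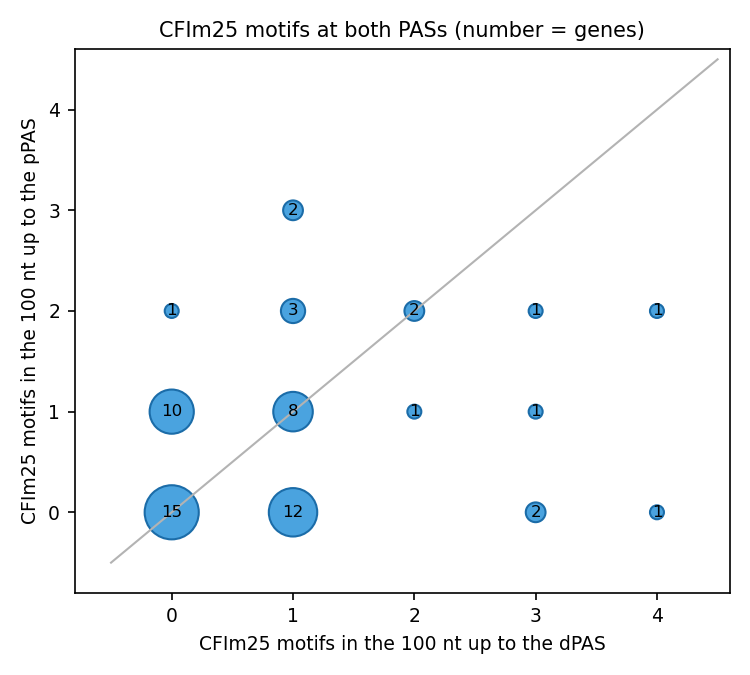
Number of UGUA motifs in the 100 nt up to the dPAS (x axis) and up to the pPAS (y axis) for the 60 members, with the number of genes in each bubble. Of the members, 19 lie below the diagonal, with more at the dPAS, 16 lie above it and 25 lie on it, 15 of these with no motif at either site.

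By role, the mean difference in UGUA count, dPAS minus pPAS, was 0.57 ± 1.27 in the 7 import genes, 0.080 ± 1.12 in the 25 mitoribosomal genes, 0.0 ± 1.05 in the 10 carriers and −0.071 ± 0.92 in the 14 respiratory genes (SD over genes), with no test of a difference from 0 or between roles. The import genes had at least 1 UGUA before 5 of 7 dPASs and 2 of 7 pPASs. The highest differences were those of MTRFR (4 at the dPAS, 0 at the pPAS), MRPL44 and TOMM70 (3 at the dPAS, 0 at the pPAS), and the lowest those of COX20 (0 at the dPAS, 2 at the pPAS), MRPS7 and SLC25A13 (1 at the dPAS, 3 at the pPAS). For each of them the 30 nt with the most motifs at the richer site are shown, with TGTA in capitals.
MTRFR dPAS, chr12:123742426-123742455, plus strand: tTGTAcctttgtgagatTGTAtgtttTGTA
MRPL44 dPAS, chr2:224832370-224832399, plus strand: taTGTAtcttatgtgaattttttgcTGTAa
TOMM70 dPAS, chr3:100082329-100082358, minus strand: tctttTGTAaatgacctcacaTGTAaattc
COX20 pPAS, chr1:245006556-245006585, plus strand: aatcaagtaaataaagtttaagtTGTAgtc
MRPS7 pPAS, chr17:73262081-73262110, plus strand: gttaaggaTGTAgttccttTGTAagggtgg
SLC25A13 pPAS, chr7:95749756-95749785, minus strand: gctcatatgaTGTAcaTGTActgattactg
In MTRFR 3 of the 4 motifs lay in these bases, which end 23 nt before the dPAS. In MRPS7 and SLC25A13 2 of the 3 motifs lay in the bases shown, which end 30 and 29 nt before the pPAS. The bases shown hold 2 of the 3 motifs in MRPL44 and TOMM70 and 1 of the 2 in COX20. NDUFS1 had as many motifs at its dPAS as MTRFR, 4, of which 3 lay in a TG-rich stretch that ends 42 nt before it, but it had 2 at its pPAS too. MRPL44, a protein of the large mitoribosomal subunit, had a signal at both of its sites, AATAAA at the dPAS and ATTAAA at the pPAS. SLC25A13 had AATAAA at each of its sites, whereas MTRFR and TOMM70 had a signal within 40 nt at the dPAS only. At the pPAS of TOMM70, AATAAA lay within 50 nt. The pPAS of MTRFR and the dPAS of COX20, each with a count of 0, had no signal and were followed by A-rich sequence.

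The sequence that only the long isoform carries, between the sites, was 62.3% A and T in the members (median) and 62.7% in all genes. ATTTA, the core of AU-rich elements, occurred there in 41 members (68.3%) and 1872 of all genes (68.7%), at 2.72 per kb of sequence in the members and 2.34 per kb in all genes. It was found most often in NDUFS1 (19 copies), SLC25A36 (18) and MRPL19 (13), which have the 3 widest pairs of the members, and in all 10 carriers at least once. NDUFB5 had 9 copies and SLC25A37 had 5 in pairs nearly as wide as that of SLC25A36. TIMM50 had 2 in 3096 nt. A copy of the motif is a match of letters and says nothing of a factor that binds it.

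Of 54 other genes of mitochondrial translation, import and respiration that were listed with these members, 17 were in the table. They had a median distance of 510 nt, from 164 nt in PMPCB, a subunit of the protease that removes import signals, to 7863 nt in SCO1, a copper chaperone of complex IV. None of them had a pair under 100 nt. A signal stood at 11 dPASs and 9 pPASs of the 17. UGUA stood before 4 of their 17 dPASs (23.5%) and 12 of their 17 pPASs (70.6%), the reverse of the order in the members. The mean difference of the 17 genes, dPAS minus pPAS, was −0.53 ± 1.42 (SD, n = 17 genes), with more at the dPAS in 1 gene (AFG3L2, a subunit of an inner membrane protease, 4 at the dPAS and 0 at the pPAS), more at the pPAS in 10 and equal counts in 6.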

How the data were processed

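QuantSeq FWD libraries of HL-60 cells were made from 3 OE-CFIm25 and 3 OE-control samples, all 6 h after 3 nM PMA. Read 2 was trimmed by the authors and mapped to hg19 with STAR 2.7.7a. Alignments from 100 nt upstream to 25 nt downstream of PASs in PolyA_DB were kept, and a read was given to a PAS if it ended no more than 24 nt away. PAS positions were used as the authors deposited them. The authors also deposited read counts per library at each step, as whole-number counts with no normalization. These 6 libraries are numbered with no link to a sample, so the counts are given over all 6. The other columns of the table hold the authors' comparison of the groups, namely RED, which is a log2 difference of dPAS over pPAS ratios between groups, an adjusted p headed as from a Fisher test where the methods name DEXSeq, and a direction. They were not used. The table has 0 columns of values per sample.

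Sequence came from GRCh37, which is the build of hg19. GENCODE release 44, mapped to GRCh37, gave the annotation. Python 3.11.15 was used with pysam 0.24.0, samtools 1.23.1, numpy 2.4.6, pandas 2.3.3, scipy 1.17.1 and matplotlib 3.10.9. Motifs were searched on the transcript strand only, and the search was tested on simulated sequences. A PAS was taken as lying in a 3’ UTR up to 24 nt past its annotated end. The members, the lists and the alternatives were chosen with earlier results of these data known. Described in more detail were the 5 members with the shortest (6 with a tie) and the 5 with the longest distance, the 3 with the highest and the 3 with the lowest difference in UGUA count, and up to 6 with a poly(A) signal at neither PAS. No sequence was printed for SLC25A37. A further result on sequence at A-rich sites is not reported here.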

Additional observations from a re-analysis of the deposited data

How the results depend on the processing

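Of 33 alternatives to the windows, motifs, annotation and members used, 29 bear on shares and medians. A value inside the 95% interval of the value reported came from 27 of these. The intervals are wide, so a value inside one can still differ. With AATAAA alone, 68.3% of member dPASs and 43.3% of member pPASs had a signal in place of 80.0 and 55.0%, both inside. Both PASs of all 60 members lay in an annotated last-exon UTR, so that alternative could not change the median distance. The cause of the changes was not tested. With 14 A or a run of 8 A required, A-rich sequence followed 6.67% of member dPASs in place of 13.3%. With 9 further variants taken as signals, 73.3% of member pPASs had a signal in place of 55.0%. In 50 nt up to the site in place of 100 nt, the mean difference in UGUA count of members, dPAS minus pPAS, was −0.017 in place of 0.15. It was 0.065 over the 46 members with PASs at least 100 nt apart, 0.15 from 100 to 30 nt before the site and 0.23 with TGTAA or TGTAT only, so no direction is given for it. The median distance of members was 303.0 to 454.0 nt with any 1 role left out and 253.0 nt over the 46 members with no A-rich sequence after either PAS, where all genes had 708 nt.

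No paired analysis was possible because each gene has 1 row for both groups together, with nothing per sample, and so no replicate was left out either. No read number per PAS was given, so how often each site was used is not analysed here. Genes outside the table are not analysed here either.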
